A study of Homo sapiens with 6 samples.

Results

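The 10 genes described here belong to the signalling pathways of transforming growth factor beta (TGF-beta) and bone morphogenetic proteins (BMPs), and were measured in T24, an established line of human bladder cancer, after knockdown of the long noncoding RNA BLACAT3. They were the ligands TGFB1 and TGFB2, the receptor TGFBR2, the signal carrier SMAD3, the BMP antagonist NOG, the feedback inhibitors SMAD7 and PMEPA1, and the transcriptional regulators ID1, ID2 and ID3. These 10 genes, of 11079 in the deposited table, were selected on the difference between the groups described here, together with knowledge of the pathway, so that difference is a description for them and not a test. All 10 were listed in the table and all 10 passed the filter used for testing, a mean of at least 1 FPKM (fragments per kilobase of transcript and scaled to the size of the library).

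The study held 6 RNA-seq libraries, 3 from cells with a control short hairpin RNA (shControl, labelled wild type) and 3 from cells with a hairpin against BLACAT3 (shBLACAT3, labelled BLACAT3 knockdown). Both groups were T24 cells grown in serum-containing medium, transduced with lentivirus and selected with puromycin as stable strains, and the labels do not say whether a strain was a clone or a pool. The labels name 1 hairpin against BLACAT3, so an effect of the hairpin other than on its target and an effect of the target cannot be told apart. The level of the target itself was not analysed here. The titles number the replicates without saying whether they were separate cultures, so p-values cover only the scatter of these libraries, part or all of which may be technical.

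As background, TGF-beta ligands are secreted in a latent form and, once active, bind the type II receptor TGFBR2, which recruits the type I receptor TGFBR1. The receptors phosphorylate SMAD2 and SMAD3, while BMP receptors phosphorylate SMAD1, SMAD5 and SMAD9, and both classes join SMAD4 and act on target genes in the nucleus. Noggin, the product of NOG, binds BMPs outside the cell and keeps them from their receptors. In epithelial tumours the TGF-beta pathway is known both for growth arrest and for promoting a mesenchymal state, and ID genes are among the classical BMP targets.

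The knockdown cells held more NOG, TGFB2 and PMEPA1 RNA and less ID1, TGFBR2 and SMAD7 RNA. NOG went from a mean of 6.71 to 20.3 FPKM, TGFB2 from 1.21 to 3.53, and PMEPA1 from 9.52 to 15.7. ID1 went from 70.6 to 38.8, TGFBR2 from 31.5 to 20.6 and SMAD7 from 5.31 to 3.66 FPKM. In the fit across all genes (limma on log2(FPKM + 1), Benjamini-Hochberg adjusted p under 0.05) 3 of the 10 genes were called higher and 3 lower in shBLACAT3. The same fit called 9.37% of the 10008 genes tested, 2.57% higher and 6.8% lower. The groups did not overlap in 7 of the 10 genes, and in 32.8% of all genes tested. Since the genes were chosen with this contrast known, nothing is read from these shares. The median log2 difference was -0.04 over the 10 genes and -0.0025 over all genes tested. In bulk RNA, fewer cells expressing a gene and less RNA per cell cannot be told apart.

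**Figure D1:**
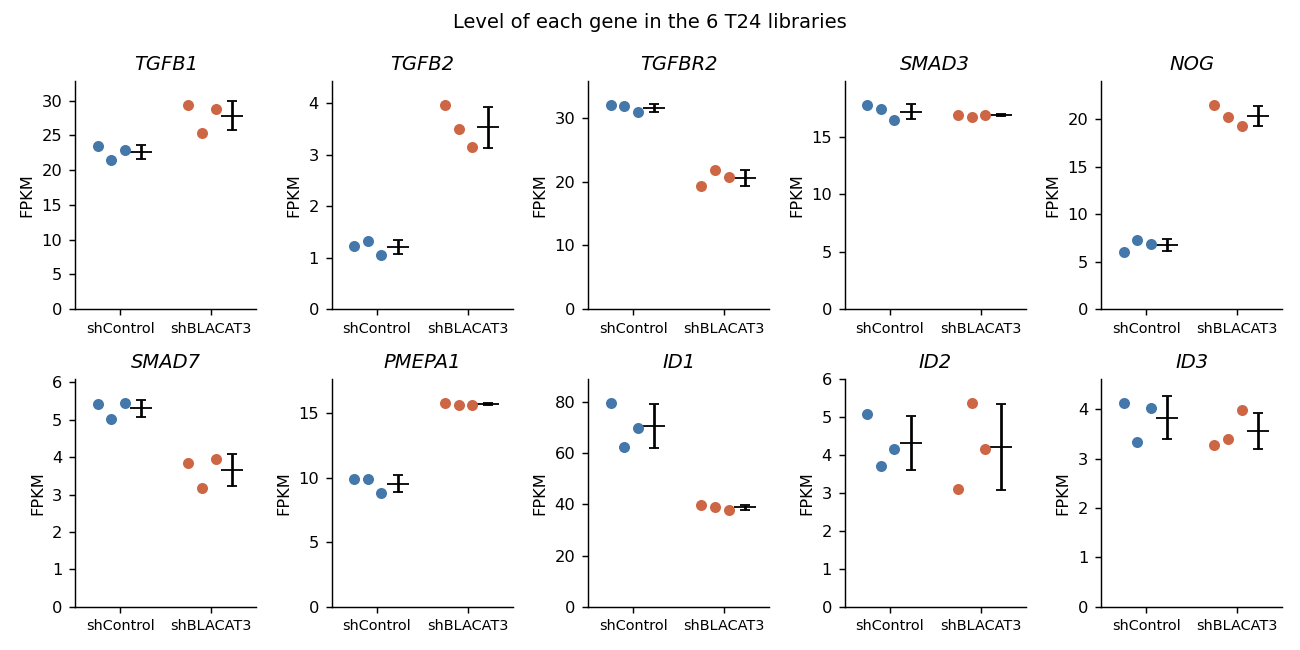
FPKM (y axis, from 0) of each of the 10 genes in the 3 shControl (blue) and 3 shBLACAT3 (orange) libraries, 1 point per library, with the mean and SD of each group in black. The groups stand apart for NOG, TGFB1, TGFB2, PMEPA1, ID1, TGFBR2 and SMAD7 and overlap for SMAD3, ID2 and ID3.

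Of the ligands, TGFB2 moved by the larger factor and TGFB1 was the more abundant. TGFB2, which encodes a TGF-beta isoform with a central role in embryonic development, was listed at 1.23, 1.32 and 1.06 FPKM in shControl replicates 1, 2 and 3 and at 3.95, 3.49 and 3.15 in shBLACAT3 replicates 1, 2 and 3. Every shBLACAT3 library lay above every shControl library, with a ratio of means of 2.93. On the log2(FPKM + 1) scale, which understates the change of such a low gene, the difference was 1.04 (SE 0.10, n = 3 per group), and with a pseudocount of 0.1 it was 1.48. TGFB1, the most widely expressed isoform, stood at 23.5, 21.5 and 22.9 FPKM in shControl and at 29.3, 25.4 and 28.9 in shBLACAT3. These groups did not overlap either, but the log2 difference of 0.29 (SE 0.08) did not pass the threshold, and it passed without shBLACAT3 replicate 2. TGFB2 made up 4.98%, 5.80% and 4.43% of the summed FPKM of both ligands in shControl and 11.9%, 12.1% and 9.85% in shBLACAT3. TGFB1 thus remained the main isoform in each library, with 7.42, 7.29 and 9.15 times the FPKM of TGFB2 in the knockdown libraries.

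The windows of 250 bases before the RefSeq transcription start (GRCh38.p14) of these ligand genes are shown. The genes encode near relatives of which only TGFB2 was called, and the difference between their changes was not tested. Bases run 5′ to 3′ on the gene's strand, and capitals mark CAGAC, the box bound by SMAD3 and SMAD4, searched on both strands.
TGFB2, chr1:218345086-218345335, plus strand: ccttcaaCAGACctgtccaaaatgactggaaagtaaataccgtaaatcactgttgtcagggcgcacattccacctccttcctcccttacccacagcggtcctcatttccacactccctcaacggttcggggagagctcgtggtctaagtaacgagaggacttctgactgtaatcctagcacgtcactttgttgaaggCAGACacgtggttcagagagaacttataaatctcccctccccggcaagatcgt
TGFB1, chr19:41353923-41354172, minus strand: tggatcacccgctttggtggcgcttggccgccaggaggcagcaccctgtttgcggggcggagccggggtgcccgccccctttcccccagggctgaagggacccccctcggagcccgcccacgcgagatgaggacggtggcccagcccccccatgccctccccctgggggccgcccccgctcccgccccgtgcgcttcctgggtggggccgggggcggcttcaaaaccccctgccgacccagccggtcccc
The TGFB2 window held CAGAC 2 times, beginning 243 and 53 bases before the start, and its GC content was 50.4%. The TGFB1 window held no match and had a GC content of 76.8%. Of 35116 RefSeq windows of this length, 38.0% held CAGAC on either strand. RefSeq windows were matched by symbol for 9 of the 10 genes, all but NOG, at 19 start sites, of which 8 held CAGAC. The motif GGCGCC, a GC-rich box bound by SMAD1 and SMAD5 that reads the same on both strands, was in 2 of the 19 windows and in 16.4% of all windows. The AP-1 motif TGANTCA was in 1 of the 19 and 6.57% of all, and the cyclic AMP response element TGACGTCA in 0 of the 19 and 1.65% of all. No 2 of the motif matches in these 19 windows overlapped. A match is a string of letters and not evidence of binding.

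Other genes of the pathway were taken from 11 lists by role, which held 114 genes besides the 10. Of these, 74 were in the table and 64 were tested, with 6 called higher and 16 lower (34.4%, beside 9.37% of all genes tested) and 42 not passing. Their median log2 difference was -0.08, and some of these genes were known from earlier results of these data when the lists were made. Nothing is therefore read from this share or from the shares of the single lists below. The count was 11 to 14 without any 1 shControl library or without shBLACAT3 replicate 1 (13, 11 and 14 for shControl replicates 1, 2 and 3, and 12 for shBLACAT3 replicate 1).

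**Figure D2:**
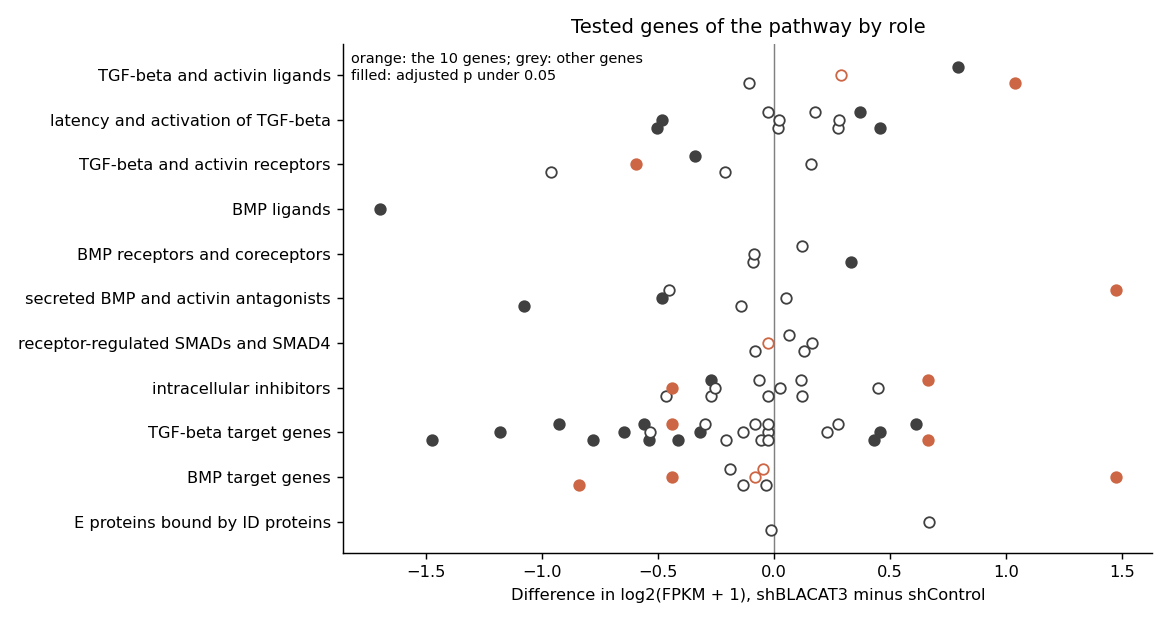
Difference in log2(FPKM + 1), shBLACAT3 minus shControl (x axis), of each tested gene in the 11 role lists (y axis, with a small vertical offset for legibility), with the 10 genes in orange, others in grey, and genes past an adjusted p of 0.05 filled. BMP6 lies farthest to the left at -1.70 and NOG farthest to the right at 1.47.

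Among the other ligands of the TGF-beta and activin class, GDF15, a stress-induced cytokine that is a distant relative, rose from 25.3 ± 2.24 to 44.5 ± 4.05 FPKM (SD, n = 3; limma adjusted p 0.0040). INHBA, which encodes a subunit of activin A, was listed at 16.2, 18.2 and 18.3 FPKM in shControl and at 18.9, 16.9 and 13.3 in shBLACAT3, with groups that overlapped (log2 difference -0.11, SE 0.13).

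Genes that hold or release latent TGF-beta moved in both directions, with 2 of 10 tested higher and 2 lower. The share called was 40.0%, beside 9.37% of all genes tested. THBS1, which encodes thrombospondin, an extracellular activator of latent TGF-beta, rose from 10.1 ± 0.79 to 14.2 ± 0.72 FPKM (SD, n = 3; limma adjusted p 0.017). ITGB1, the common integrin beta chain, rose from 140 ± 8.59 to 181 ± 9.79 FPKM (adjusted p 0.024). FBN1, the microfibril protein on which latent complexes are stored, fell from 1.59 ± 0.22 to 0.82 ± 0.09 FPKM (adjusted p 0.020). With an shBLACAT3 mean under 1 FPKM, FBN1 passed the filter only through its shControl values. FURIN, the convertase that cleaves the TGF-beta precursor, fell from 14.8 ± 0.72 to 10.4 ± 1.17 FPKM (adjusted p 0.026). None of these calls held in every setting with 1 library left out. THBS1 lost it when shControl replicate 2 (0.075) or 3 (0.073) was absent. For ITGB1 these libraries were shControl replicates 1 (0.081), 2 (0.064) and 3 (0.088) and shBLACAT3 replicate 1 (0.071). FURIN lost it without the same libraries (0.11, 0.075, 0.091 and 0.061), and FBN1 without these (0.072, 0.053, 0.063 and 0.060) or shBLACAT3 replicate 2 (0.055).

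TGFBR2, the receptor that binds active ligand, fell in the knockdown cells. It was listed at 31.9, 31.9 and 30.8 FPKM in shControl and at 19.3, 21.8 and 20.6 in shBLACAT3. The spread within each group was small beside the gap, with SDs of 0.63 and 1.27 FPKM, and the log2 difference was -0.60 (SE 0.06, n = 3 per group). Its partner TGFBR1, the type I receptor, stood at 5.57, 5.78 and 5.31 FPKM in shControl and at 6.97, 7.79 and 4.61 in shBLACAT3, short of the threshold (limma adjusted p 0.59). The ratio of TGFBR2 to TGFBR1 was 5.73, 5.52 and 5.80 in shControl and 2.76, 2.79 and 4.48 in shBLACAT3, where replicate 3 lay closest to the controls and its TGFBR1 value was the lowest of the 6.

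Of 4 other tested receptors of this class, 1 was called (25.0%, beside 9.37% of all genes tested). ENG, which encodes the co-receptor endoglin, fell from 19.3 ± 0.60 to 15.1 ± 1.38 FPKM (SD, n = 3; limma adjusted p 0.048), and this call was lost whichever library was left out (adjusted p 0.17, 0.13 and 0.14 for shControl replicates 1, 2 and 3, and 0.077, 0.060 and 0.050 for shBLACAT3 replicates 1, 2 and 3).

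SMAD3, the receptor-activated SMAD of the TGF-beta branch, was listed at 17.7, 17.4 and 16.5 FPKM in shControl and at 16.9, 16.8 and 16.9 in shBLACAT3. The knockdown values lay inside the range of the controls, with a log2 difference of -0.03 (SE 0.06). Over all 10008 genes tested, limma called 9.37%, and 2567 had an unadjusted p below 0.05. Of the other SMADs that carry signals, SMAD1, SMAD2, SMAD4 and SMAD5, limma called 0 of 4, and 0 of 4 had an unadjusted p below 0.05. The members of this class with the smallest p were SMAD5 (10.4 ± 0.73 and 11.5 ± 1.54 FPKM, SD, n = 3, adjusted p 0.50) and SMAD1 (2.94 ± 0.14 and 2.72 ± 0.12, adjusted p 0.53), both carriers of the BMP signal. SMAD3 was also the most abundant of the 5 in both groups, at 7.37, 6.92 and 6.86 times the FPKM of SMAD2 in shControl and 6.03, 6.15 and 7.38 times in shBLACAT3.

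NOG showed the largest difference of the 10 genes. It was listed at 6.01, 7.25 and 6.88 FPKM in shControl replicates 1, 2 and 3 and at 21.5, 20.3 and 19.3 in shBLACAT3 replicates 1, 2 and 3. The lowest knockdown library lay far above the highest control library, and the ratio of means was 3.03. The log2 difference was 1.47 (SE 0.09, n = 3 per group) and ranged from 1.40 to 1.52 with any 1 library left out. By this difference NOG was number 6 from the top among the 10008 genes tested.

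The BMP ligand measured beside it moved the other way. BMP6, the only one of 11 listed BMP and related ligands analysed here, was listed at 3.80, 3.83 and 2.83 FPKM in shControl and at 0.54, 0.22 and 0.39 in shBLACAT3. It fell by 1.70 on the log2(FPKM + 1) scale (SE 0.13, limma adjusted p 0.00076), a 9.09-fold lower mean FPKM, and kept its call in all 13 other settings. The shBLACAT3 mean of BMP6 was 0.38 FPKM, so it passed the filter only through its shControl values, and the call is a description. Within single libraries NOG was at 1.58, 1.89 and 2.44 times the FPKM of BMP6 in shControl and at 39.6, 92.5 and 49.7 times in shBLACAT3, where the low BMP6 values make the ratio imprecise. Of 4 tested BMP receptors and co-receptors, 1 was called (25.0%, beside 9.37% of all genes tested). RGMB, a membrane-anchored BMP co-receptor, rose from 11.6 ± 0.17 to 14.9 ± 0.79 FPKM (SD, n = 3; limma adjusted p 0.027). The receptors BMPR1A, BMPR2 and ACVR1 did not pass (adjusted p 0.46 to 0.66). The call of RGMB did not hold when shControl replicate 1 (0.099), 2 (0.10) or 3 (0.11) or else shBLACAT3 replicate 1 (0.080) was left out.

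Of 5 other secreted antagonists tested, 2 fell and 0 rose (40.0% called, beside 9.37% of all genes tested). FSTL3, a follistatin-like protein that binds activins, fell from 7.91 ± 1.25 to 3.24 ± 0.68 FPKM (SD, n = 3; limma adjusted p 0.0089). FSTL1, a secreted glycoprotein, fell from 3.08 ± 0.34 to 1.92 ± 0.18 FPKM (adjusted p 0.029). The call of FSTL1 did not hold when shControl replicate 1 (0.12) or 2 (0.11) or else shBLACAT3 replicate 1 (0.084) or 2 (0.052) was left out. NBL1, TWSG1 and CRIM1, which also bind BMPs, did not pass (adjusted p 0.13 to 0.73).

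The feedback inhibitors SMAD7 and PMEPA1, both induced by TGF-beta in many cells, moved in opposite directions. PMEPA1, a membrane protein that takes SMAD2 and SMAD3 away from the receptor, was listed at 9.90, 9.89 and 8.77 FPKM in shControl and at 15.7, 15.6 and 15.6 in shBLACAT3. Its knockdown libraries were nearly equal (SD 0.08 FPKM), and its log2 difference was 0.66 (SE 0.07, n = 3 per group). SMAD7, which blocks the receptors and brings ubiquitin ligases to them, was listed at 5.44, 5.03 and 5.45 FPKM in shControl and at 3.85, 3.17 and 3.96 in shBLACAT3. All 3 knockdown values lay under all 3 control values, with a log2 difference of -0.44 (SE 0.09). This was the weakest of the 6 calls, and it was lost without any 1 shControl library or without shBLACAT3 replicate 1 or 2. Its limma adjusted p was then 0.13, 0.093 and 0.13 for the 3 shControl replicates and 0.075 and 0.055 for shBLACAT3 replicates 1 and 2, with log2 differences of -0.49 to -0.36 over all 6 libraries left out in turn. The ratio of PMEPA1 to SMAD7 was 1.82, 1.97 and 1.61 in shControl and 4.09, 4.93 and 3.94 in shBLACAT3.

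Among 10 other tested inhibitors inside the cell, 1 was called (10.0%, near the 9.37% of all genes tested). This was SMURF1, one of the ubiquitin ligases that act with SMAD7. It fell from 17.1 ± 0.66 to 14.0 ± 0.39 FPKM (SD, n = 3; limma adjusted p 0.042), and the call was lost without any 1 shControl library (0.17, 0.10 and 0.14 for replicates 1, 2 and 3) or without shBLACAT3 replicate 1 (0.11) or 2 (0.076). Its relative SMURF2 had means of 60.5 ± 3.58 and 50.6 ± 3.58 FPKM (adjusted p 0.093).

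**Figure D3:**
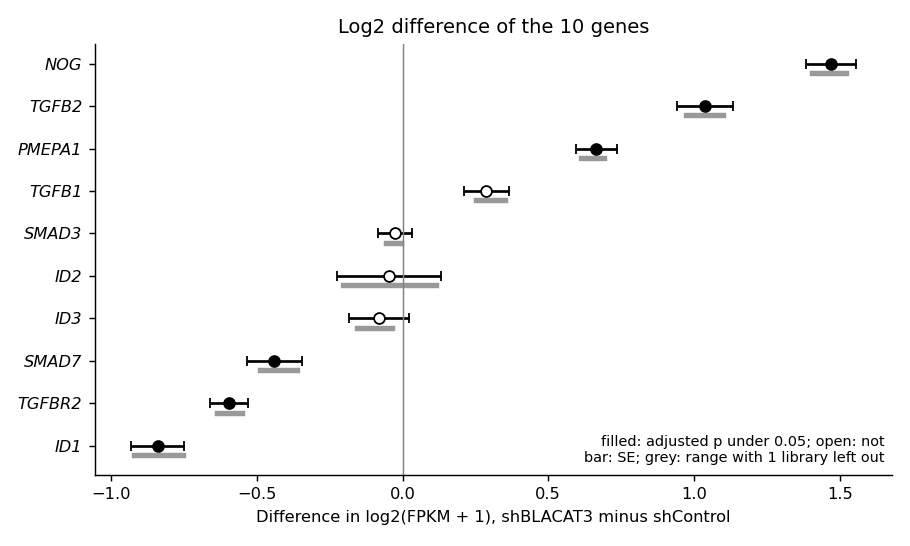
Difference in log2(FPKM + 1), shBLACAT3 minus shControl (x axis), of each of the 10 genes (y axis, ordered by the difference), with its SE as a bar, the range with 1 library left out in grey, and filled points for an adjusted p under 0.05. NOG (1.47), TGFB2 (1.04) and PMEPA1 (0.66) lie to the right and ID1 (-0.84), TGFBR2 (-0.60) and SMAD7 (-0.44) to the left, while the grey range of ID2 spans 0.

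The ID genes encode helix-loop-helix proteins without a DNA-binding region, which hold E proteins and related factors away from DNA. Of these 3 paralogs ID1 was by far the most abundant, and of the 3 it alone was called. ID1 was listed at 79.5, 62.6 and 69.7 FPKM in shControl and at 39.6, 38.9 and 38.0 in shBLACAT3. The controls spread widely (SD 8.50) and the knockdown libraries little (SD 0.83), and the groups were far apart, with a log2 difference of -0.84 (SE 0.09, n = 3 per group). ID2 was listed at 5.09, 3.71 and 4.15 FPKM in shControl and at 3.10, 5.37 and 4.15 in shBLACAT3. Its lowest and its highest value were both knockdown libraries, and the log2 difference of -0.05 (SE 0.18) changed sign without shControl replicate 1 (0.056) or shBLACAT3 replicate 1 (0.11). ID3 was listed at 4.12, 3.33 and 4.02 FPKM in shControl and at 3.28, 3.41 and 3.98 in shBLACAT3, again with groups that overlapped (log2 difference -0.08, SE 0.10). The difference between the change of ID1 and that of its paralogs was not tested.

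The summed level of the 3 genes followed ID1. It was 88.7, 69.7 and 77.9 FPKM in shControl and 46.0, 47.6 and 46.1 in shBLACAT3. ID1 made up 89.6%, 89.9% and 89.5% of this sum in shControl and 86.1%, 81.6% and 82.4% in shBLACAT3.

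**Figure D4:**
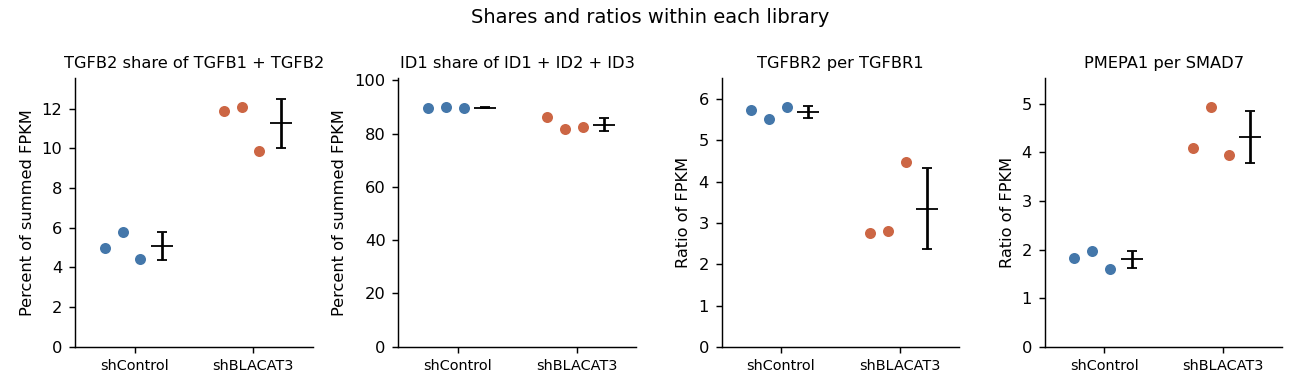
Shares and ratios computed within each library (y axes, from 0) for the 3 shControl (blue) and 3 shBLACAT3 (orange) libraries, with mean and SD in black. The TGFB2 share lies at 4.43% to 5.80% in shControl and at 9.85% to 12.1% in shBLACAT3, and the ratio of TGFBR2 to TGFBR1 is less even in shBLACAT3 than in shControl.

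The windows of 250 bases before the RefSeq starts of the ID genes (GRCh38.p14) are shown because only ID1 of these paralogs was called. The same 4 motifs were searched, and any match is in capitals.
ID1, chr20:31605039-31605288, plus strand: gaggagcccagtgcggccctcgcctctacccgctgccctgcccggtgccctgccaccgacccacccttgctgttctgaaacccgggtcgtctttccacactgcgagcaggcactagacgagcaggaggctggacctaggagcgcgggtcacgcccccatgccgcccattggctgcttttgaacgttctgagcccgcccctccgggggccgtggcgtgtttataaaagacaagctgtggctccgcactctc
ID2, chr2:8681806-8682055, plus strand: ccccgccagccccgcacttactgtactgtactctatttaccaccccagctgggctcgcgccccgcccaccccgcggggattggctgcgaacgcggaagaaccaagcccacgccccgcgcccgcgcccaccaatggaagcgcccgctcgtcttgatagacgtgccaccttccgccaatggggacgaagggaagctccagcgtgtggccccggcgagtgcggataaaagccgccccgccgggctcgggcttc
ID3, chr1:23559502-23559751, minus strand: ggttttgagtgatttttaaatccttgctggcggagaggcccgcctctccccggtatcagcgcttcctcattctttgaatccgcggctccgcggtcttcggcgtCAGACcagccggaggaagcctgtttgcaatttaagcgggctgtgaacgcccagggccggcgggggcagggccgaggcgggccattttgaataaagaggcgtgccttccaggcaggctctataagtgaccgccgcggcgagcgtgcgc
Of the 4 motifs, CAGAC was in the ID3 window 1 time, beginning 147 bases before the start, and the ID1 and ID2 windows held no match. GC content was 66.0%, 69.2% and 62.0% for ID1, ID2 and ID3. No match in these windows says nothing of sites farther away.

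Few other BMP targets were measured. Of 3 tested besides the 10 genes, namely MSX1, MSX2 and GATA2, limma called 0, and 0 had an unadjusted p below 0.05. Over all 10008 genes tested, 9.37% were called and 2567 had such an unadjusted p. MSX1, a homeobox gene, stood at 3.29 ± 0.22 and 2.77 ± 0.39 FPKM (SD, n = 3; adjusted p 0.29), and its relative MSX2 at 1.95 ± 0.28 and 1.68 ± 0.10 (adjusted p 0.41). Of the E proteins that ID proteins bind, TCF3 was listed at 9.71, 11.4 and 12.4 FPKM in shControl and at 11.8, 10.3 and 11.0 in shBLACAT3. TCF12 was listed at 4.35, 4.39 and 3.37 FPKM in shControl and at 8.60, 10.6 and 3.53 in shBLACAT3. Neither passed (limma adjusted p 0.96 and 0.27), but TCF12 was called higher without shBLACAT3 replicate 3 (log2 difference 1.07, adjusted p 0.010), the library whose value lay among the controls.

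Among genes that TGF-beta induces in many cells, of 23 tested besides the 10 genes, 9 fell, 3 rose and 11 did not pass. Over all genes tested 9.37% were called, and 72.6% of those calls were lower, so the lower side led in the whole table too. The median log2 difference of the 23 was -0.21, beside -0.0025 for all genes. IGFBP3, which binds insulin-like growth factors, fell from 3.72 ± 0.13 to 0.70 ± 0.04 FPKM (SD, n = 3; limma adjusted p 9.7e-05). JUNB, an AP-1 transcription factor gene, fell from 37.4 ± 2.49 to 16.0 ± 1.81 FPKM (adjusted p 0.00082), and SNAI2, a repressor of epithelial genes, from 2.59 ± 0.40 to 1.09 ± 0.08 (adjusted p 0.0059). These 3 calls held in all 13 other settings. IGFBP3, with an shBLACAT3 mean under 1 FPKM, passed the filter only through its shControl values.

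The 3 that rose were THBS1, FN1 and EDN1, of which FN1 and EDN1 are named after their values were seen. FN1, fibronectin, rose from 30.8 ± 0.89 to 41.8 ± 1.23 FPKM (SD, n = 3; limma adjusted p 0.0056). EDN1, which encodes the vasoconstrictor endothelin, rose from 8.17 ± 0.36 to 13.0 ± 0.56 FPKM (adjusted p 0.0033). CCN2 and CCN1, matricellular genes that respond to TGF-beta and to YAP, did not pass, with 93.3 ± 2.84 and 89.7 ± 4.02 FPKM for CCN2 (adjusted p 0.57) and 202 ± 4.10 and 191 ± 8.28 for CCN1 (adjusted p 0.39). PMEPA1, listed among the TGF-beta but not the BMP targets, stood higher in the knockdown libraries. SMAD7, listed among both the TGF-beta and the BMP targets, stood lower. NOG, listed among the BMP targets as well as the secreted antagonists, stood higher, and ID1, another listed BMP target, stood lower.

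Per length, the levels of the 10 genes spanned a wide range and their order changed between the groups. In shControl the order of mean FPKM was ID1, TGFBR2, TGFB1, SMAD3, PMEPA1, NOG, SMAD7, ID2, ID3 and TGFB2. The ranges over libraries overlapped between the neighbours SMAD7 and ID2 and between ID2 and ID3, and not between the others. In shBLACAT3 the order was ID1, TGFB1, TGFBR2, NOG, SMAD3, PMEPA1, ID2, SMAD7, ID3 and TGFB2. There the ranges overlapped between TGFBR2 and NOG and along ID2, SMAD7, ID3 and TGFB2. NOG, at place 6 of the 10 in shControl, reached the level of TGFBR2 in the knockdown cells, and TGFB2 reached that of ID3.

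The 5 tested genes whose log2(FPKM + 1) over the 6 libraries was most like that of NOG by Pearson's correlation were MCCC1, WIZ, SMC1A, EZR and VMA21, with r from 0.994 to 0.996. MCCC1 encodes a mitochondrial carboxylase subunit, SMC1A a cohesin subunit and EZR the membrane linker ezrin. They were listed at higher FPKM in each shBLACAT3 than in each shControl library but changed far less than NOG: SMC1A was at 20.4, 21.2 and 21.2 FPKM in shControl and 29.0, 29.2 and 27.5 in shBLACAT3. Since the libraries fall into 2 groups of 3, such a correlation over 6 points mainly restates the group difference and is given as a description.

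Across the whole table the listed values summed to 211958 to 226953 FPKM per library, and the read depth behind them is unknown. Of 10008 genes tested, 257 were called higher and 681 lower, a count of 938 that came to 357 without shControl replicate 1 and to 1339 without shBLACAT3 replicate 3. Of 16 markers of urothelial and epithelial cells 5 were measured (KRT7, KRT8, KRT18, FOXA1 and PPARG), and the others, the uroplakins of mature urothelium among them, were not analysed here. The summed level of these 5 was 180 to 211 FPKM in shControl and 124 to 143 in shBLACAT3. Most of this sum came from KRT8 and KRT18, which fell from 60.7 ± 4.78 to 22.1 ± 2.40 FPKM and from 112 ± 14.98 to 74.2 ± 5.19 (SD, n = 3; limma adjusted p 0.00039 and 0.022). The other 3 did not pass and went both ways, with 20.0 ± 5.62 and 32.0 ± 3.45 FPKM for KRT7, 3.77 ± 0.43 and 4.71 ± 0.31 for PPARG and 2.53 ± 0.29 and 1.88 ± 0.10 for FOXA1 (adjusted p 0.097, 0.15 and 0.099). The part of these markers in the results above was not tested. The 5 immune and 4 endothelial markers listed were not analysed here, and the globin genes HBA1 and HBB summed to 15.8 to 22.1 FPKM in shControl and 15.8 to 21.6 in shBLACAT3.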

How the data were processed

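Total RNA of T24 cells was sequenced from libraries made with a stranded kit, per the labels' protocols. Cutadapt, HISAT2 2.1.0 and StringTie are named, per the submitters' processing notes, and these sources give no build, annotation or strand setting. The authors deposited 1 value per gene and library under a header without a unit, which was taken to be FPKM because the columns are not whole numbers, differ in their sums and come from StringTie. Columns headed NC and SH were read as shControl and shBLACAT3, with the replicate number of the title. Of 11081 rows, 11007 were matched to a symbol and rows that shared a symbol (2 symbols) were added up. The higher group mean was at least 0.5 in every row, so genes low in both groups were not analysed here.

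Genes whose mean reached 1 FPKM were fitted in limma 3.58.1 (R 4.3.3) on the log2(FPKM + 1) scale, comparing the groups with no other term and with a trend of variance on mean. The p-values are two-sided and Benjamini-Hochberg adjusted over all 10008 genes, and the threshold was 0.05. FPKM holds no counts, so no count test or counting interval is given. The fit was checked on simulated data. The 10 genes and the pathway lists were chosen with earlier results of these data known. From each list up to 4 called genes with the largest absolute difference were named, or, where none passed, the 2 with the smallest p; 1 gene this rule chose is counted but not reported here. Other genes were named after their values were seen. The settings tried were a replicate block, 0.1 as the pseudocount, 0.1 as the filter's mean or no filter, median scaling, quantile normalization, no trend, and each library left out. A filter at a mean of 0.1 removed no gene, so it gave the same fit as no filter, and both are counted as settings. Figures were drawn with matplotlib 3.10.9.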

Additional observations from a re-analysis of the deposited data

How the results depend on the processing

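The 13 other settings moved the counts of calls more than the 10 genes. With a replicate block 612 genes in all, 13 other pathway genes and 5 of the 10 genes passed in limma, and SMAD7 was the one of the 10 that lost its call (adjusted p 0.052). Of the other named pathway genes, THBS1 (0.055), ITGB1 (0.058), FBN1 (0.0503), ENG (0.068), RGMB (0.058), FSTL1 (0.076) and SMURF1 (0.076) lost theirs with this block too. Same-numbered libraries deviated together with correlations of 0.10, 0.12 and 0.09, and libraries of unlike number with -0.116 to 0.024. Each library thus correlated best with its own number, though weakly. The labels state no pairing, so the main fit has no block, and whether the numbers are pairs is not known. Leaving out 1 library gave 357 to 1339 genes in all and 11 to 25 other pathway genes. Without shBLACAT3 replicate 3 the lower genes were 56.2% of the calls, where the main value was 72.6%. NOG, TGFB2, PMEPA1, ID1 and TGFBR2 kept direction and call in all 13 settings. SMAD7 kept direction in all and lost its call in 6, this block and 5 of the 6 libraries left out. All settings draw on the same 6 libraries. The 10 genes were chosen on this contrast, so their calls here are a description and not a test. TGFB1 passed without shBLACAT3 replicate 2 (0.035). The log2 difference of ID2 ranged from -0.20 to 0.11 with 1 library left out and turned sign without shControl replicate 1 (0.056) or shBLACAT3 replicate 1. That of TCF3 ranged from -0.10 to 0.061. It turned sign without shControl replicate 2 (0.0038) or 3, or shBLACAT3 replicate 2 (0.036). The cause was not tested. Of 39 genes followed through the settings, 28 had a call in the main fit, and 15 of these kept it in all 13 settings. The 39 include the 5 genes most like NOG and the 1 gene not reported here, and leave out KRT8 and KRT18. Quantile normalization, which moved the median of all genes from -0.0025 to 0.03, gave 64.3% lower calls. Depth is unknown, so the precision of low values such as those of TGFB2 and BMP6 rests on the spread between libraries alone.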

Other observations

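Of the other pathway genes in the table, 10 lay under a mean of 1 FPKM and so outside the main test. Of them, 4 were called in limma when no filter was applied, a fit that called 1186 of all 11079 genes. LTBP1 and LTBP3, which encode proteins that store latent TGF-beta in the matrix, were at 0.80 ± 0.07 and 1.07 ± 0.14 FPKM in shControl and at 0.41 ± 0.08 and 0.53 ± 0.12 in shBLACAT3 (SD, n = 3; adjusted p 0.033 and 0.031). NEO1, which encodes neogenin, the receptor of RGM proteins such as RGMB, was at 0.77, 0.64 and 0.44 FPKM in shControl and at 0.15, 0.16 and 0.18 in shBLACAT3 (adjusted p 0.022). INHBB, an activin subunit gene, was at 0.35, 0.30 and 0.21 FPKM in shControl and at 0.81, 0.54 and 0.81 in shBLACAT3 (adjusted p 0.037). Values this low are imprecise in a table without read counts. The higher group mean was at least 0.5 in every row of the table. LTBP1 and NEO1 reached this level only in shControl and INHBB only in shBLACAT3, so their calls are a description and not a test.

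In some pathway genes a single knockdown library stood far from the others, and these genes are named after their values were seen. ACVR1B, the type I activin receptor, was at 5.39, 5.06 and 5.31 FPKM in shControl and at 1.35, 1.58 and 4.46 in shBLACAT3, so that replicate 3 lay close to the controls (log2 difference -0.96, limma adjusted p 0.11, and 0.0015 without shBLACAT3 replicate 3). SKIL, a SMAD corepressor, was at 5.50, 5.78 and 5.86 FPKM in shControl and at 7.48, 8.75 and 2.45 in shBLACAT3, and TGIF2, another corepressor, was at 6.72, 3.20 and 5.18 and at 0.79, 5.24 and 5.87. The library set apart was shBLACAT3 replicate 3 for ACVR1B and SKIL and shBLACAT3 replicate 1 for TGIF2. Across the whole table, shBLACAT3 replicate 3 had the lowest median of the 6 libraries, 5.70 FPKM beside 5.91 to 6.07, and the highest sum. What sets these single libraries apart was not tested.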
